A study of Rattus norvegicus with 4 samples.

Results

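Transthyretin (Ttr) and 8 other genes used as markers of the choroid plexus (Kl, Folr1, Aqp1, Clic6, Slc4a5, Otx2, Enpp2 and Rbp4) were followed in the rat hippocampus after voluntary running. A probe was counted for a gene when the accession on the array resolved to its symbol. This gave 7 probes for 7 of the 9 genes, out of 41012 noncontrol probes and 8899 gene symbols in all. No probe resolved to Otx2, a homeobox transcription factor of the choroid plexus, or to Rbp4, the retinol carrier that binds transthyretin, and both are named only. The set was chosen by the ratios of Ttr on these same chips, so the values of Ttr are a description and not a test.

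The rats were male, of the Wistar strain and 10 weeks old at the start. The sedentary group (Sed, 10 rats) lived in standard cages, the wheel running group (WR, 8 rats) had a wheel with no resistance, and the resistance wheel running group (RWR, 8 rats) had a wheel whose load began at 4.5 g in the first week and rose to 30% of body weight, all over 4 weeks. Rats were housed singly in every group. Hippocampal RNA was pooled within each group and hybridized in 2 colours, Sed with WR on chips 1 and 2 and Sed with RWR on chips 3 and 4, with Cy3 and Cy5 exchanged on the other chip of each pair. Each pool joined equal amounts of RNA from replicates of the group, 3 by the amounts in the methods, and whether a replicate was the RNA of 1 rat is not given in the sources used here. The chips of a pair measured the same pools, so each comparison had 1 biological replicate, no test between the groups was possible, and no error across rats can be given. Both comparisons share the sedentary group as their control. With 2 chips for each comparison, precision is limited by their number.

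The choroid plexus is a vascular tissue covered by epithelium that projects into the brain ventricles and secretes the cerebrospinal fluid, and it lies against the hippocampus along the choroid fissure. Transthyretin is one of its most abundant secreted products in the brain, carries thyroxine, and carries retinol through its complex with Rbp4. The other genes cover the tissue's transport and hormone functions: Aqp1 is a water channel, Slc4a5 a sodium bicarbonate cotransporter, Clic6 a member of the chloride intracellular channel family, Folr1 a folate receptor, Kl the klotho coreceptor for a fibroblast growth factor, and Enpp2 the secreted enzyme autotaxin, which is also made by oligodendrocytes.

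Ttr had the lower signal in the WR pool and not in the RWR pool. Its single spot (probe A_44_P175003) was well above background in all 8 channels. The processed signal, an intensity after background subtraction and dye normalization, was 520 for Sed and 315 for WR on chip 1. On chip 2, with the dyes swapped, it was 531 for Sed and 267 for WR. On chip 3 it was 581 for Sed and 667 for RWR, and on chip 4 it was 535 for Sed and 551 for RWR. Both WR signals lay under all 4 Sed signals, whose range was 520 to 581, whereas 1 of the RWR signals lay inside that range and the other above it. Of 24953 probes that were above background in every channel, 4.15% also had both WR signals under all 4 Sed signals.

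**Figure D1:**
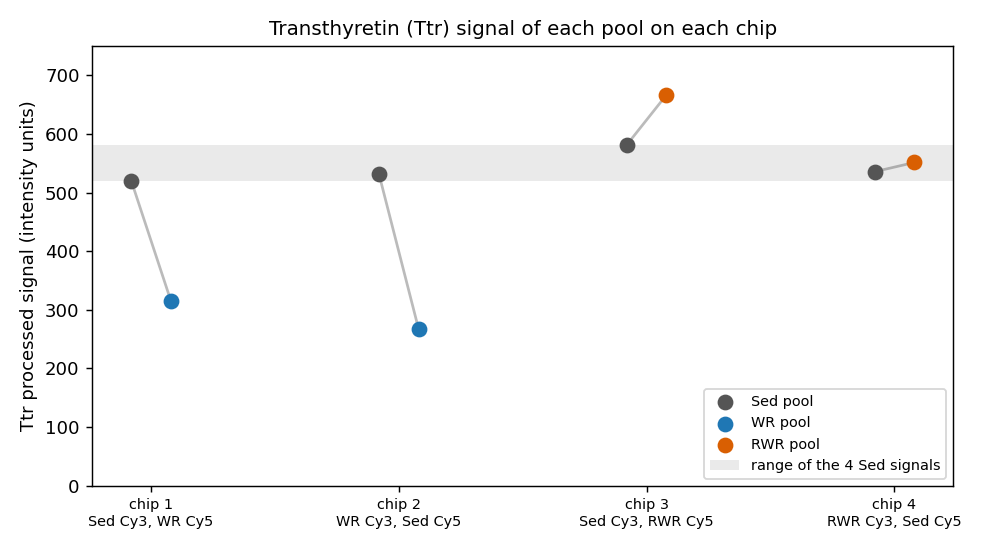
Processed signal of Ttr (intensity units, linear axis from 0) for both pools of each of the 4 chips, with grey lines joining the pools of 1 chip and a grey band for the range of the 4 Sed signals (520 to 581). The WR points (315 and 267) lie under the band, and the RWR points (667 and 551) lie above and inside it.

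As a log2 ratio of running over sedentary, Ttr was −0.72 on chip 1 and −0.99 on chip 2, each with a deposited error of the spot's log ratio near 0.22 (0.216 and 0.224). The mean of the WR pair was −0.86 ± 0.19 (SD of 2 chips), a signal 0.552-fold that of Sed. In the Sed × RWR comparison the log2 ratio was 0.20 on chip 3 and 0.04 on chip 4, with errors of 0.205 and 0.205, and a mean of 0.12 ± 0.11 (SD of 2 chips), or 1.09-fold. Neither RWR ratio exceeded its own error. The Ttr ratios of the 2 chips differed by 0.270 in WR and 0.155 in RWR, beside a median absolute difference of 0.208 and 0.195 over the probes above background in every channel. In bulk tissue, fewer cells of a type and less RNA per cell cannot be told apart.

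Genes were called at a fold above 1.5 or below 0.75 on both chips of a pair with the error-model p of the chip below 0.01 on both. The limits and the selection over both dye orientations follow the study's methods, which do not state that fold and p had to pass on each chip, so the rule used here may be stricter and its counts are not those of the study. That p describes the spot on 1 chip and not the rats. Ttr was the 1 gene of the set called lower in Sed × WR, and 0 of the 7 probes were called higher. Over all probes, 0.0293% (12 of 41008) were called lower and 0.00244% (1 of 41008) higher in that comparison. In Sed × RWR none of the 7 probes was called in either direction, where 0.0488% (20 of 41007) of all probes were called lower and 0.00975% (4 of 41007) higher. Since the choice of the set used the WR ratios, nothing is read from its count there.

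Among the 24953 probes above background in every channel, only 5 (0.0200%) had a lower WR ratio than Ttr. The central 95% of those probes lay between −0.20 and 0.21 in log2 ratio, with a median of 0.00. In RWR, 89.8% of the same probes had a lower log2 ratio than Ttr, and the central 95% lay between −0.21 and 0.21, so the RWR value of Ttr was inside the bulk. A probe that fell below background in the WR pool is missing from this count. With background judged in the 4 Sed channels alone, a choice made after the values were seen, 13 of 26066 probes (0.0499%) had a lower WR ratio than Ttr.

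**Figure D2:**
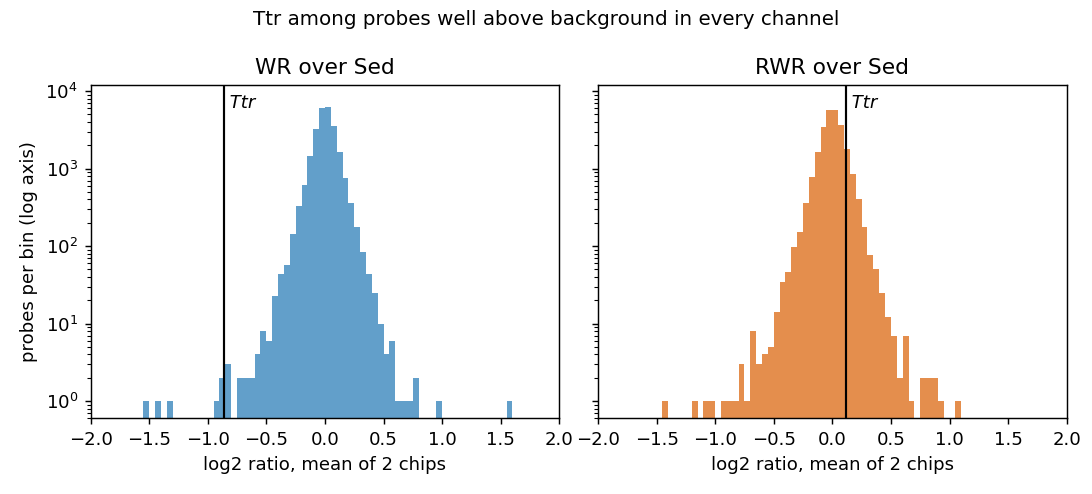
Number of probes (log axis) in bins of the log2 ratio of running over sedentary, mean of 2 chips, for the 24953 probes well above background in every channel, with WR on the left and RWR on the right. The vertical line is Ttr, which lies in the lower tail at −0.86 in WR and inside the bulk at 0.12 in RWR.

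The WR and RWR pools were never on the same chip, and were set side by side within a dye. In Cy5 the Ttr signal was 315 for WR (chip 1) and 667 for RWR (chip 3), a log2 difference of −1.08. In Cy3 it was 267 for WR (chip 2) and 551 for RWR (chip 4), a log2 difference of −1.05. The Sed signals of the same chip pairs differed by −0.16 and −0.01, so most of the WR to RWR difference was not shared by the control channels. Taken as ratios to Sed, the differences were −0.92 with the running pool in Cy5 and −1.03 with it in Cy3. A log2 ratio under the lower fold limit on both WR chips and above 0 on both RWR chips was found for 4 of the 24953 probes (0.0160%). A gene symbol was known for 2 of these, Ttr and Prl3d4, a prolactin family gene, and they were counted with the values of Ttr in view.

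Enpp2 was well above background in all 8 channels and stayed near a log2 ratio of 0. Its Sed signals were 1525, 1534, 1764 and 1640 on chips 1 to 4, its WR signals 1515 and 1413, and its RWR signals 1792 and 1561. Both WR signals lay under the lowest Sed signal, the nearer at 1515 against 1525, as did those of the 4.15% of probes given above, whereas 1 RWR signal lay inside it and the other above it. The log2 ratios were −0.01 and −0.12 in WR and 0.02 and −0.07 in RWR, with pair means of −0.06 ± 0.08 and −0.02 ± 0.07 (SD of 2 chips). All 4 ratios were smaller than their deposited errors of 0.204.

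Folr1, the folate receptor, was dimmer but also above background in all 8 channels. Its signals were 45.5, 40.3, 57.7 and 49.1 for Sed on chips 1 to 4, 43.4 and 31.4 for WR, and 51.9 and 58.8 for RWR. The WR pair mean was −0.21 ± 0.21 and the RWR pair mean 0.06 ± 0.29 in log2 ratio (SD of 2 chips), from −0.07 and −0.36 in WR and from −0.15 and 0.26 in RWR. The WR ratios had deposited errors of 0.322 on chip 1 and 0.311 on chip 2. Folr1 was below Sed on both WR chips, as Ttr and Enpp2 were, but on chip 1 by less than its error. Its ratio passed neither fold limit, and the chips of the RWR pair had opposite signs. The share of all probes below Sed on both WR chips was not counted, so nothing is read from the shared sign.

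Aqp1, the water channel, had 10 spots of 1 probe, of which 8 to 10 per chip were left after outlier flags. The mean Sed signals were 22.7, 24.2, 40.3 and 42.9 on chips 1 to 4, the WR signals 23.6 and 23.7, and the RWR signals 37.0 and 54.7. Both Sed signals of chips 3 and 4 were thus above both of chips 1 and 2, and its WR and RWR levels are set only against the Sed signal of their own chip. Its log2 ratios were 0.12 and −0.04 in WR, where the spots of a chip ranged from −0.42 to 0.81 and from −0.41 to 0.31, and −0.11 and 0.37 in RWR. On chip 4 all 8 spots were above 0, between 0.18 and 0.65, whereas on chip 3 they ranged from −0.51 to 0.30. The pair means were 0.04 ± 0.11 and 0.13 ± 0.34 (SD of 2 chips). The probe was above background in 7 of 8 channels, the exception being Sed on chip 1, with 3 of 10 spots.

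The last 3 genes were at or near background. Clic6 was above background in 3 of 8 channels, in the RWR pool on chips 3 and 4 (signals 20.8 and 27.9) and in Sed on chip 4 (28.3). Its RWR log2 ratios were 1.21 on chip 3, against a Sed signal of 9.03 that was not above background, and −0.02 on chip 4. These do not repeat between the chips, and their mean was 0.59 ± 0.87 (SD of 2 chips). In the WR comparison neither pool was above background on either chip, so no fold is given. Slc4a5, the bicarbonate cotransporter, was above background in 1 of 8 channels, in Sed on chip 4 at 15.4 beside 5.99 for RWR. A lower bound of its fold, taken against the dimmest signal above background, came out under 1, and no fold is given. Kl was above background in 0 of 8 channels, with signals between 3.74 and 10.4.

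**Figure D3:**
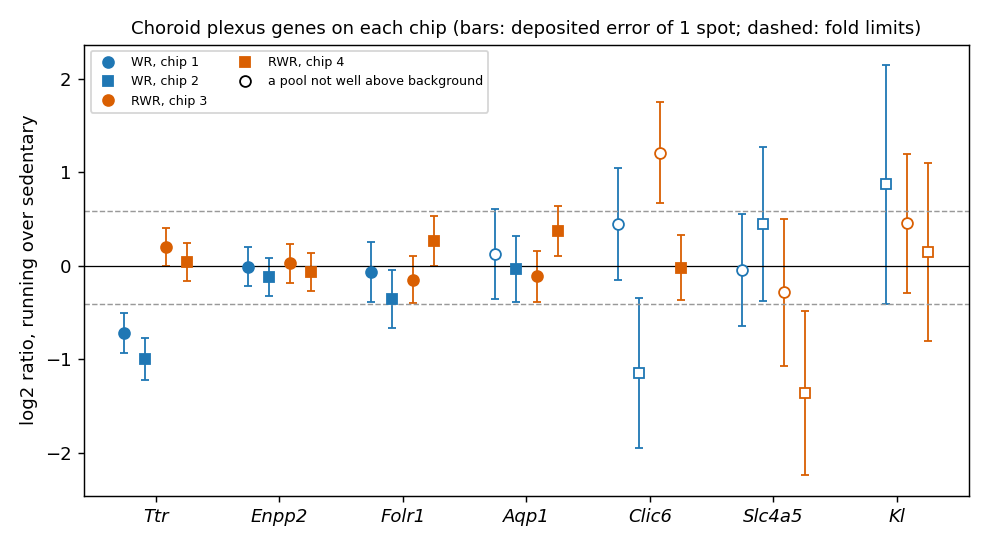
Log2 ratio of running over sedentary of the 7 genes with a probe on chips 1 and 2 (WR, blue) and 3 and 4 (RWR, orange); bars are the deposited error of the log ratio of 1 spot (root mean square over the spots for Aqp1), dashed lines are the fold limits of 1.5 and 0.75, and open symbols mark a chip where a pool was not well above background. Kl on chip 1 is left out because its ratio was deposited as 0, and Ttr in WR is the 1 gene with filled points past a limit on both chips of a pair.

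Genes that the choroid plexus is also known for were listed apart from the set above. Of 40 such genes, 23 had a probe and 15 were above background in both pools on both WR chips. None of the 23 was called in either comparison, and with the small shares called over all probes nothing is read from this. In Sed alone 16 genes were above background on both WR chips, and the filter on both pools left out Sostdc1, an inhibitor of BMP and Wnt signalling, because its WR pool was not above background on chip 2. Its signals were 33.1, 55.1, 40.9 and 54.7 for Sed on chips 1 to 4, 28.5 and 15.8 for WR, and 59.8 and 41.7 for RWR. As for Ttr, both WR signals lay under all 4 Sed signals, and 1 RWR signal lay above the Sed range and the other inside it. Its log2 ratios were −0.22 and −1.80 in WR, of which only the second passed the lower fold limit, and 0.55 and −0.39 in RWR. The WR ratio on chip 1 was smaller than its deposited error of 0.36. The pair means were −1.01 ± 1.12 and 0.08 ± 0.66 (SD of 2 chips), and its 2 chips lay further apart than those of Ttr. The WR mean thus rests mostly on chip 2, where the WR pool was not above background. It was singled out after its values were seen. Over the other 15 genes the WR pair means ran from −0.22 to 0.15, with a median of −0.04, beside 0.00 over all named genes above background. In RWR 17 were above background, from −0.13 to 0.10, with a median of −0.01. With background judged in Sed alone, the medians were −0.05 over 16 genes in WR and −0.02 over 20 genes in RWR, where Ace, Kcnj13 and Krt8 joined and the range widened to −0.52 (Kcnj13) and 0.21 (Krt8). Below Sed on both WR chips were 3 of the 15 genes, above it on both were 2, and in RWR these counts were 0 and 1 of 17. The share of all genes below or above Sed on both chips was not counted, and nothing is read from these counts. The ends of these ranges were read after the values were seen and are given for orientation. They were Cox8b, a cytochrome c oxidase subunit, and Lrp2, the endocytic receptor megalin, in WR, and Igfbp2, an insulin-like growth factor binding protein, and Slc15a2, a peptide transporter, in RWR. The summed processed signal of the 15 genes above background in every channel ranged from 4816 to 5570 over the 4 Sed channels, from 4649 to 5008 over WR, and from 4775 to 5597 over RWR. The average signals of the chips were then brought to 1 scale by quantile normalization (Aquantile), which leaves the ratio of the dyes within a chip as it was. After this the ranges were 5004 to 5316, 4949 to 5010 and 4964 to 5054. The Ttr signal on that scale was 315 and 283 for WR, 601 and 575 for RWR, and 520 to 564 for Sed. The sum is carried mostly by its brightest genes. These were Igf2 (mean processed signal 1492), Msx1 (758), Slc4a10 (633), Cab39l (624) and Slc15a2 (541). Kcnj13, Htr2c, Slc16a8 and Sostdc1 were not above background in every channel and are not in it. The sum is therefore no measure of the amount of plexus. Of the 23 genes, only Prlr, the prolactin receptor, was above background in 0 channels. The amount of choroid plexus taken with each hippocampus was not measured, and its part in the Ttr ratio was not tested.

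No gene listed for the hormone and vitamin pathways that transthyretin serves was called. Over all probes 0.0293% were called lower and 0.00244% higher in WR, and 0.0488% and 0.00975% in RWR. With shares this small, nothing is read from the lack of a call. Among 17 genes of retinoid handling, with 14 on the array, 8 were above background in WR and 10 in RWR, and the log2 pair means ran from −0.23 to 0.14 in WR and from −0.21 to 0.11 in RWR. The list holds binding proteins, enzymes that make and clear retinoic acid, and receptors. Of the receptors only Rxr genes are in these ranges. Rara was not above background in both pools on both chips of either pair, and Rarb and Rarg had no probe. Of 14 thyroid hormone genes (deiodinases, transporters, receptors, albumin and target genes), 13 had a probe, 10 were above background in WR and 11 in RWR, and the pair means ran from −0.17 to 0.14 in WR and from −0.09 to 0.08 in RWR. Their medians were −0.03 and −0.01 for retinoid genes and −0.06 and −0.00 for thyroid hormone genes, in WR and RWR respectively.

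Markers of the cell types beside the plexus were read in the same way. Of 13 ependymal genes 6 had a probe, with pair means between −0.18 and 0.06 in the 6 above background in WR and between −0.08 and 0.08 in the 5 above background in RWR. The sixth, Tekt1, was at −0.33 in RWR, where the RWR pool was not above background on both chips. Of 11 meningeal genes 8 had a probe, and in the 6 above background the median was −0.10 in WR and 0.06 in RWR. In WR 3 of these 6 were below Sed on both chips, and in RWR 3 of 6 were above it on both. The share of all genes with such signs was not counted, so nothing is read from these counts. The pair means of 4 endothelial genes ran from −0.12 to 0.01 in WR and from −0.17 to 0.08 in RWR. Oligodendrocyte genes, read because Enpp2 is also made there, had a median of −0.07 in WR (7 above background) and −0.11 in RWR (8 above background). None of these genes that was above background passed a fold limit on both chips of a pair. All 4 hippocampal neuron markers with a probe, of 7 listed, were above background in every channel, with medians of 0.05 and 0.04. Of 7 pituitary hormone genes 6 had a probe, and Prl was called lower in RWR. Its Sed signals were 32.9, 28.0, 29.5 and 34.3 on chips 1 to 4, and its signals were 12.6 and 20.8 in WR and 11.1 and 20.2 in RWR, neither running pool being above background on any chip. Prl passed the lower fold limit on both chips of the WR pair too, but its p was under the limit on chip 1 only. As pair means, Sed was 1.53-fold the dimmest signals above background on the WR chips and 1.98-fold on the RWR chips. These are not limits for a single chip, where the log2 ratio was −0.44 on chip 2 and −0.94 on chip 4.

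**Figure D4:**
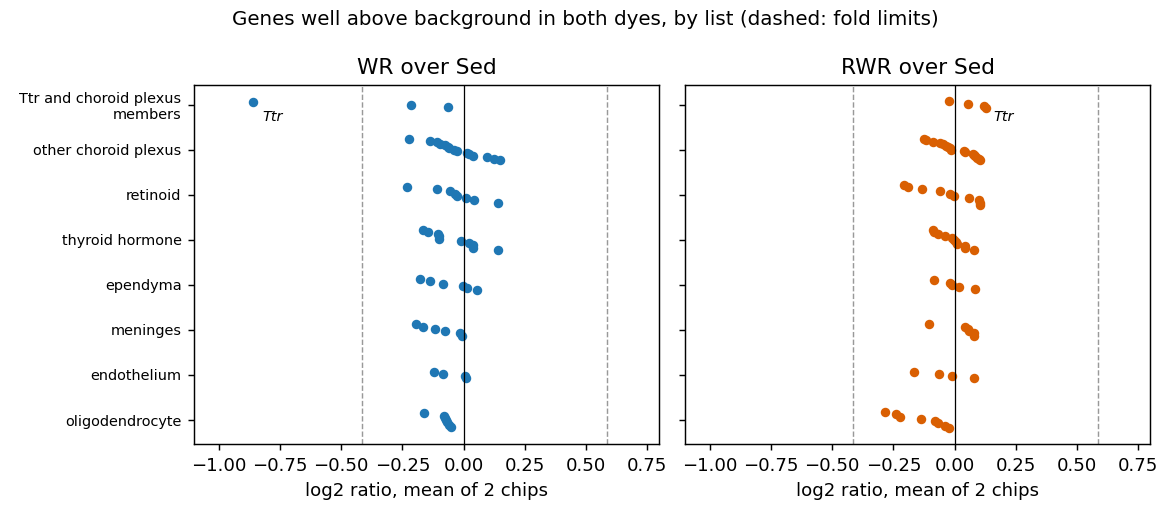
Log2 ratio of running over sedentary, mean of 2 chips, of each gene that was well above background in both pools on both chips, by list, for WR (left, blue) and RWR (right, orange); each point is 1 gene and dashed lines are the fold limits of 1.5 and 0.75. Ttr is the 1 point past a dashed line, at −0.86 in WR, and the points of the other choroid plexus genes lie from −0.22 to 0.15 in WR and from −0.13 to 0.10 in RWR, where genes below background in a pool, such as Sostdc1 (−1.01 in WR), are not drawn.

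The genes whose 4 log2 ratios were nearest to those of Ttr were sought among 5926 named genes above background in every channel, by the Euclidean distance over the 4 chips. The nearest was Prl3d4, at a distance of 0.634, with pair means of −0.53 in WR and 0.15 in RWR. Next were Dusp11, an RNA phosphatase (0.672, with −0.55 and −0.13), Oas1b, an antiviral oligoadenylate synthetase (0.703, with −0.62 and −0.18), and Gal, the neuropeptide galanin (0.736, with −0.39 and 0.15). The other 6 of the 10 nearest were Nde1, Irf7, Stat2, Gpr26, Sycp2 and Oas1a, at distances of 0.739 to 0.820. None of these 10 genes was called in either comparison. Oas1a and Oas1b are paralogs, and whether their probes share signal was not checked. The distance rests on 4 ratios and is a description of these chips.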

How the data were processed

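Hippocampal RNA of Sed, WR and RWR rats was measured on 4 two-colour chips of a single rat oligo array slide, from pools of RNA per group. The members and gene lists were chosen with earlier results of these data known. The authors scanned the chips and ran Agilent Feature Extraction 11.0.1.1, with background subtraction, spatial detrending and LOWESS dye normalization. Per spot they deposited the intensity of each dye after these steps, the log10 ratio of Cy5 over Cy3 (set to 0 where not measurable), the error of that ratio (a score on the log10 scale), the p-value of the error model, and flags. The deposited series matrix gives log10 ratios of those intensities and was an alternative.

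Control spots and outlier-flagged spots (118 to 140 per chip) were left out, and the ratios were turned to running over sedentary, with the direction taken from the dyes in the labels, and converted to log2. Spots of a probe were averaged, and the brightest probe stood for a gene that had more than 1. A probe was above background in a channel when more than 0.5 of its spots were flagged well above background, which held for 67.5 to 82.5% of the noncontrol spots per channel; 0 spots were saturated. Median processed signals were 62.2 to 74.6 in Cy3 and 66.4 to 78.3 in Cy5. The array was designed on rn4, and accessions were matched to RefSeq of GRCr8 for names only (10768 of 41012 probes). Named genes of the other lists were those called or past a fold limit on both chips, with the exceptions stated in the text, and the 10 genes nearest to Ttr. The chips' labels give no batch within the slide. After they were turned to running over sedentary, the ratios of the chips of a pair correlated at −0.761 (WR) and −0.686 (RWR) over all probes. Over the probes as a whole, a higher ratio on 1 chip thus went with a lower ratio on its dye swap. A running difference shared by both chips would give a positive correlation. The pair means average over both dye orientations.

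Alternatives were normexp (offset 50) or no background correction with loess, median centring, kept outliers, the matrix values, the median over probes, other call limits, and each chip left out. Aquantile signals between chips and a background filter on the Sed channels alone were added after the values were seen. The call rule was run on simulated chips with independent noise of the size of the deposited errors. These held no difference between the dyes and no variation between rats, so the run only checks the rule itself. Python 3.11.15 with pandas 2.3.3 and limma 3.58.1 under R 4.3.3 were used.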

Additional observations from a re-analysis of the deposited data

Results flagged for a closer look

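The Ttr log2 ratio was lower on both WR chips and higher on both RWR chips than in Sed, a difference between WR and RWR of −0.98. It stood out because every chip of a pair moved one way and every chip of the other pair the opposite way. The difference was not tested, since each pool is 1 biological replicate, both comparisons share the Sed group, and the RWR ratios were within the deposited error of their spots.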

How the results depend on the processing

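For Ttr in WR, normexp background correction gave a log2 ratio of −0.65 and leaving the background uncorrected gave −0.66, both nearer 0 than the −0.86 of the processed signals by more than the SD of the 2 chips. The cause was not tested. The same 2 settings gave −0.73 for the difference between WR and RWR. Over 10 alternatives the WR ratio lay between −0.99 and −0.65 and the RWR ratio between 0.04 and 0.20. Several of these had no means to move Ttr, which has 1 probe and 1 unflagged spot. They were kept outliers, the median over probes, the matrix values (ratios of the same intensities) and Aquantile, which keeps the ratio within a chip. The number of alternatives is therefore no measure of how firm the ratio is. With the Aquantile signals and all 4 Sed channels as control, an alternative added after the values were seen, Ttr kept its direction. With 1 chip of a pair left out, the median of the other choroid plexus genes in WR ranged from −0.071 to 0.085, and that in RWR from −0.118 to 0.180, so neither median has a settled sign. Under all 11 alternatives 1 of the 7 genes was called in WR and 0 in RWR, and no direction of a called value reversed. In WR the looser rules (no p filter, p on at least 1 chip, 1 chip left out) could not remove the call of Ttr. Kept outliers, the matrix values and the background filter left its spot unchanged, so the count in WR is not read as support. For Kl, Slc4a5 and, in WR, Clic6 no ratio is given under the alternatives, since a pool was not above background, and Otx2 and Rbp4 had no probe. Clic6 in RWR went from 0.59 to −0.01 with normexp and with no background correction. No paired analysis was possible because the labels give no replicate numbers and each comparison has 1 biological replicate. Signal over background limits Clic6, Slc4a5, Kl and Aqp1.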
